A study of Mus musculus with 16 samples.

Results

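The apolipoproteins are the protein coat of the particles that carry triglyceride and cholesterol in blood, and the 10 genes described here encode 9 of them, Apoa1, Apoa2, Apoa4, Apoa5, Apob, Apoc1, Apoc2, Apoc3 and Apoe, together with microsomal triglyceride transfer protein, Mttp. They were taken by symbol from a liver RNA-Seq table of 50559 gene symbols. All 10 were among the 18335 genes with enough counts to be tested, so no member was lost to the filter on low counts. The table held 16 libraries of mouse liver in 4 groups of 4, from a study that set siRNA knockdown of ketohexokinase (KHK, the enzyme that phosphorylates fructose) against a small molecule inhibitor of the same enzyme.

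All mice were male C57BL/6J, 6 weeks old when the diets began, and were kept on their diet for 10 weeks. Treatment started after 6 weeks of diet and lasted 4 weeks. Every mouse received an siRNA every 2 weeks and a gavage of methylcellulose 2 times a day. LFD mice, named chow in the sample labels and low-fat diet in the methods, and HFD mice, on a high-fat diet, both received a control siRNA against luciferase at 10 mg/kg and vehicle gavage. HFD + siRNA mice received an siRNA against Khk at 20 mg/kg, linked to GalNAc, a sugar that directs it to hepatocytes, and the vehicle gavage. HFD + Inhib mice received the control siRNA and the inhibitor PF-06835919 at 15 mg/kg in the gavage, which is not directed to one organ. Hepatocyte knockdown and inhibition therefore differ in route and in the tissues reached as well as in mechanism. The study's methods give an injection of saline or insulin shortly before tissue collection, and which library came from which was not given in the sources used here. Each library was labelled as a replicate of its group, and nothing in the labels ties a replicate number in one group to a mouse in another.

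Apolipoprotein B is the structural protein of very-low-density lipoprotein (VLDL), and MTTP loads lipid onto it in the endoplasmic reticulum of hepatocytes. Apolipoproteins A-I and A-II are the main proteins of high-density lipoprotein (HDL), apolipoprotein A-IV is made in intestine and in fatty mouse liver, and apolipoprotein E binds the receptors that clear remnants. Lipoprotein lipase, which hydrolyses the triglyceride of circulating particles, needs apolipoprotein C-II as its cofactor, is helped by apolipoprotein A-V and is held back by apolipoprotein C-III.

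The count total per library ran from 24317111 to 35820234, with a median of 29570114. Levels are given in CPM, the library's counts scaled to a common total with TMM factors, and groups as mean ± SD with n = 4. The 10 members together took 3.67% ± 0.17 of the counts in LFD, 3.78% ± 0.19 in HFD, 3.92% ± 0.061 with siRNA and 3.55% ± 0.20 with the inhibitor. Differences between groups were tested with edgeR's quasi-likelihood test in one fit of all libraries, with Benjamini-Hochberg adjustment over all 18335 genes, and a gene is said to rise or fall where its adjusted p was under 0.05. Khk itself was checked first. Its level was 214, 233, 349 and 269 CPM in the LFD libraries, 251, 322, 233 and 251 in HFD, 11.8, 9.14, 18.1 and 11.5 in HFD + siRNA, and 112, 152, 94.6 and 120.5 in HFD + Inhib. Against HFD, Khk was 20.9-fold lower with siRNA (edgeR adjusted p = 1.9e-08) and 2.21-fold lower with the inhibitor (adjusted p = 0.00075), and in neither case did the groups overlap.

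Apoa4 and Apoc2 carried the widest differences, and the treatments differed from each other in Apoa4, Apoc2, Mttp, Apoc3, Apoa5 and Apoa2. HFD raised Apoa4 and Apoc2 over LFD. Both treatments lowered Apoa4 from its HFD level, the inhibitor further than the siRNA. The siRNA raised Apoc2 and Apoc1 and lowered Mttp, whereas the inhibitor lowered Apoc2, Apoc3 and Apoa5 and raised Apoa2. Apob and Apoe passed the test in none of the 6 pairwise comparisons by edgeR, nor by DESeq2, and in none at an unadjusted p under 0.05.

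In counts, 3 of the 10 members passed the test in HFD against LFD, where 18.4% of all tested genes did, with 2 members higher (9.58% of all genes) and 1 lower (8.8%). For HFD + siRNA against HFD the count was 4, beside 11.7% of all genes, with 2 higher (5.2%) and 2 lower (6.55%). The inhibitor changed 5 against HFD, beside 18.2%, with 1 higher (9.8%) and 4 lower (8.42%). The treatments differed from each other in 6 members, beside 33.8%, with 2 higher in HFD + Inhib (17.3%) and 4 lower (16.6%). Against LFD, 2 members were higher in HFD + siRNA and none lower, beside 8.63%, 4.75% and 3.88% of all genes for any, higher and lower. In HFD + Inhib against LFD, 6 members passed, beside 36.9%, with 2 higher (18.8%) and 4 lower (18.2%). Groups did not overlap for 3 members in HFD against LFD (20.4% of all genes), 5 in HFD + siRNA against HFD (20.6%) and 4 in HFD + Inhib against HFD (23.3%). They did not overlap for 7 members between the treatments (32.4%), 4 between HFD + siRNA and LFD (12.8%) and 5 between HFD + Inhib and LFD (31.2%). The median log2 fold change over the 10 members was -0.03 in HFD against LFD, 0.10 in HFD + siRNA against HFD and -0.14 in HFD + Inhib against HFD, beside -0.01, 0.02 and -0.0044 over all tested genes. The 3 comparisons that involve HFD share its libraries, as do the 3 that involve LFD, and their values are set side by side without a test of likeness.

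**Figure D1:**
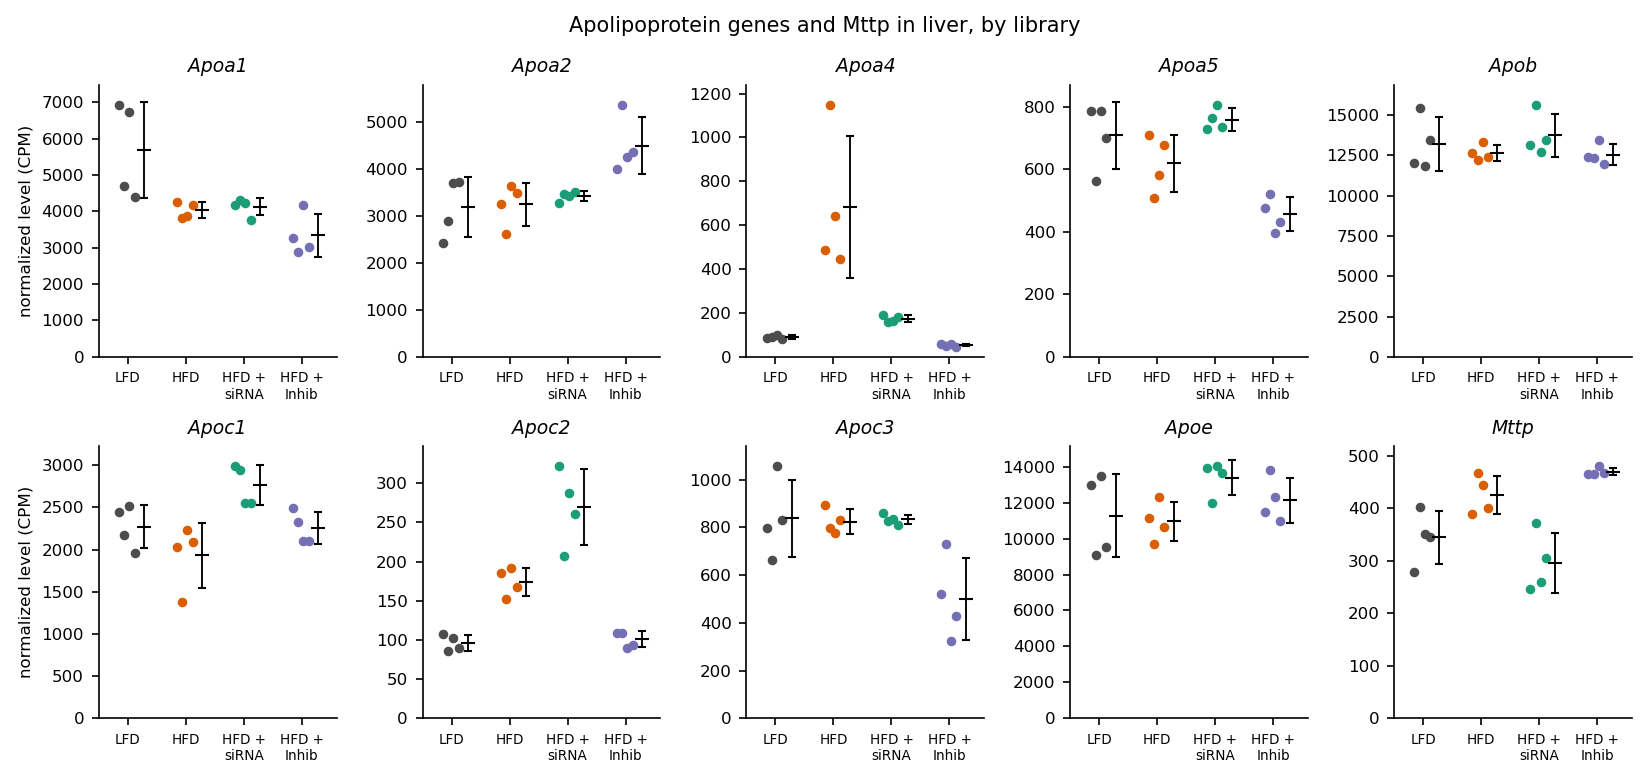
Normalized level in CPM (vertical axes, from 0, a scale for each gene) of the 10 members in the 4 libraries of each group (points), with the mean and SD beside them. Apoa4 ranged from 448 to 1149.6 CPM in HFD and reached at most 193 CPM in the libraries of the other groups, whereas Apob and Apoe overlapped between HFD and each other group.

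**Figure D2:**
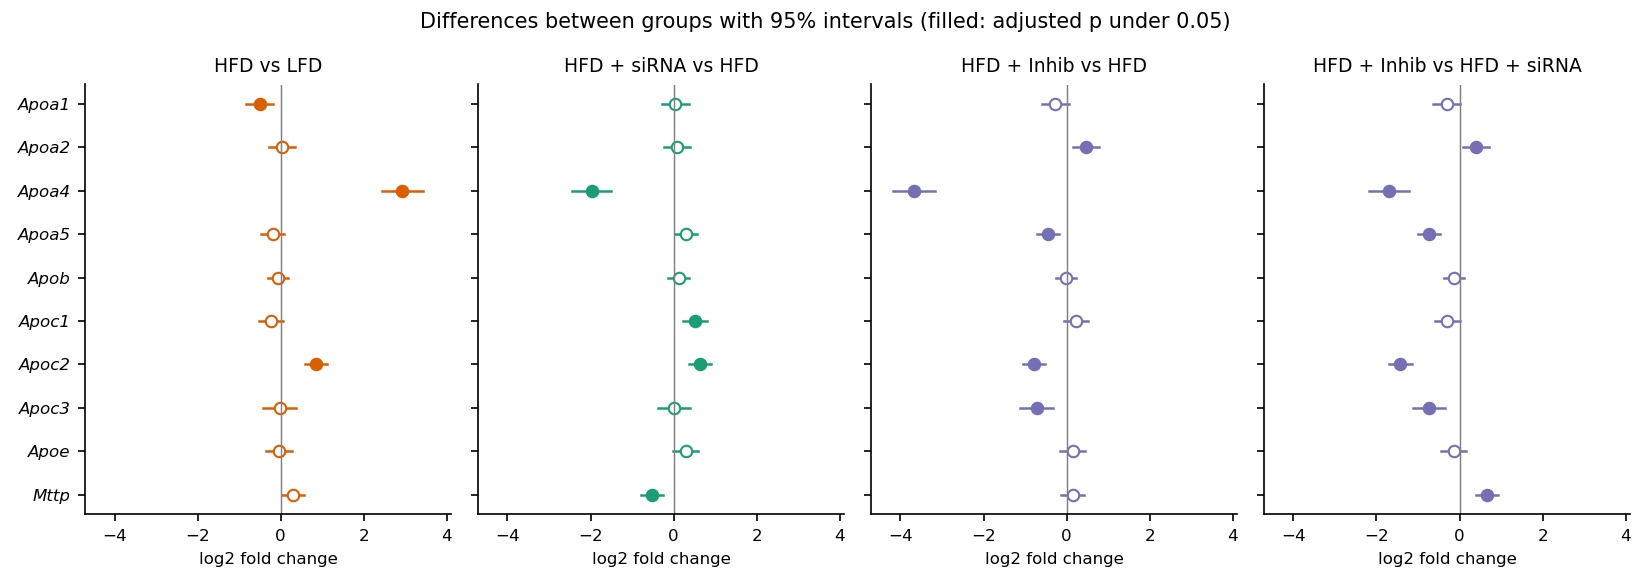
Log2 fold change (horizontal axes) of each member in 4 comparisons, with its 95% interval, filled where the edgeR adjusted p was under 0.05. Apoa4 lies at 2.93 in HFD against LFD and at -3.67 in HFD + Inhib against HFD, while Apob lies within 0.13 of 0 in each.

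Among the HDL apolipoproteins, Apoa4 moved most. Its level was 84.1, 92.5, 101 and 81.6 CPM in LFD, 488, 1149.6, 642 and 448 in HFD, 193, 159, 162 and 183 in HFD + siRNA, and 58.5, 50.8, 59.2 and 45.7 in HFD + Inhib. No library of one group reached into the range of another, so the order of the groups was HFD, HFD + siRNA, LFD and HFD + Inhib with no overlap, and the second HFD library stood far above the other HFD libraries. Apoa4 was 7.6-fold higher in HFD than in LFD, a log2 fold change of 2.93 with a 95% interval from 2.43 to 3.42 (edgeR adjusted p = 3.4e-06). It fell 3.92-fold with siRNA (log2 fold change -1.97, interval -2.44 to -1.50, adjusted p = 0.00012) and 12.7-fold with the inhibitor (log2 fold change -3.67, interval -4.18 to -3.16, adjusted p = 4.5e-08). The second HFD library also stood apart in cell type markers, with a summed level of 68714 CPM for hepatocyte markers against 79487 to 82665 in the other HFD libraries, 7.81 against 0.797 to 1.79 CPM for adipocyte markers, and 5.47 against 2.28 to 4.14 CPM for lymphocyte markers. Without it the log2 fold changes of Apoa4 were 2.55 with HFD, -1.60 with siRNA and -3.30 with the inhibitor, and all of them passed. The difference between the treatments was itself past the threshold, with Apoa4 3.25-fold lower in HFD + Inhib than in HFD + siRNA (adjusted p = 3.5e-05). Relative to LFD, Apoa4 remained 1.94-fold higher in HFD + siRNA (adjusted p = 0.013) and was 1.67-fold lower in HFD + Inhib (adjusted p = 0.014). With offsets that take out trends with GC content and length in each library (the GC and length correction), the last difference shrank to a log2 fold change of -0.47 and no longer passed (adjusted p = 0.12). Of the 50-base words in Apoa4 transcripts, 60.9% also occur on the opposite strand in Gm47528, which the count table does not list, and since strandedness is not given, their reads cannot be told apart.

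Apoa4 is abundant in intestine, so markers of enterocytes were read in the same libraries. Of 9 such markers, 4 (Sis, Alpi, Cdx2 and Rbp2) had at most 3 counts in each of the 16 libraries, and Fabp2 made up nearly all of the summed level. That sum was 29.3 ± 3.57 CPM in LFD, 82.6 ± 8.05 in HFD, 97.8 ± 11.03 with siRNA and 114 ± 17.4 with the inhibitor. Any part of intestinal RNA in the Apoa4 levels was not tested. Fabp2, a fatty acid binding protein, is also listed among the genes known to respond to CREB3L3, described further on.

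Apoa1, the main HDL protein, gave 6931, 4684, 6722 and 4401 CPM in LFD, 4249, 3803, 3883 and 4168 in HFD, 4183, 4317, 4235 and 3773 in HFD + siRNA, and 3274, 2868, 4178 and 3021 in HFD + Inhib. The LFD libraries fell into a high and a low pair, and all of them lay above the libraries of each HFD-fed group. Apoa1 was 1.41-fold lower in HFD than in LFD (log2 fold change -0.50, interval -0.82 to -0.17, edgeR adjusted p = 0.033) and 1.70-fold lower in HFD + Inhib than in LFD (adjusted p = 0.0011). In HFD + siRNA against LFD the groups did not overlap either, but the log2 fold change of -0.46 did not pass (adjusted p = 0.076), although it did by DESeq2 (adjusted p = 0.023) and without LFD replicate 2 or 4 (adjusted p = 0.047 and 0.029). The call in HFD against LFD was lost when LFD replicate 1 or 3 was left out (adjusted p = 0.12 in each fit) and on leaving out any 1 HFD library. It was also lost when just those groups were fitted (adjusted p = 0.079) and with the GC and length correction (log2 fold change -0.24, adjusted p = 0.32). Neither treatment moved Apoa1 past the threshold against HFD, with intervals from -0.29 to 0.36 for siRNA and from -0.60 to 0.05 for the inhibitor.

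Apoa2, the other main HDL protein, went the opposite way in HFD + Inhib. Its level was 2418, 2892, 3703 and 3719 CPM in LFD, 3244, 2603, 3637 and 3481 in HFD, 3267, 3465, 3425 and 3502 in HFD + siRNA, and 4004, 5362, 4249 and 4359.6 in HFD + Inhib. Each HFD + Inhib library lay above all other libraries. The inhibitor raised Apoa2 1.39-fold over HFD (log2 fold change 0.47, interval 0.16 to 0.78, edgeR adjusted p = 0.034), 1.32-fold over HFD + siRNA (adjusted p = 0.047) and 1.41-fold over LFD (adjusted p = 0.014). The call against HFD was lost on leaving out HFD + Inhib replicate 2 or 4 or HFD replicate 1, 2 or 4 (adjusted p from 0.052 to 0.11) and with the GC and length correction (log2 fold change 0.19, adjusted p = 0.5). The call against HFD + siRNA was lost in 7 of the 8 fits that left out 1 library, with adjusted p from 0.06 to 0.13 in those, and the call against LFD when just those groups were fitted (adjusted p = 0.055).

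Apob and Mttp, the pair that starts VLDL assembly, behaved differently from each other. Apob gave 12038, 15465, 11845 and 13471 CPM in LFD, 12668, 12192, 13317 and 12407 in HFD, 13139.9, 15652, 12720.5 and 13446 in HFD + siRNA, and 12392, 12366, 13468 and 11989.8 in HFD + Inhib. All 4 groups overlapped. The 95% intervals of the log2 fold change against HFD ran from -0.12 to 0.36 for siRNA and from -0.25 to 0.23 for the inhibitor, which bounds any difference without showing that there was none. With the GC and length correction Apob came out lower in HFD + Inhib than in HFD + siRNA (log2 fold change -0.35, edgeR adjusted p = 0.0049, against -0.13 and 0.41 without it); its transcript is the longest of the members and has the lowest GC content, 43.5%.

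Mttp gave 279, 402, 349.9 and 345 CPM in LFD, 389, 466, 444 and 400.4 in HFD, 245, 372, 260.2 and 306 in HFD + siRNA, and 466, 465, 479.7 and 467 in HFD + Inhib. All HFD + siRNA libraries lay below all HFD libraries, while HFD and HFD + Inhib overlapped. The siRNA lowered Mttp 1.44-fold from HFD (log2 fold change -0.52, interval -0.79 to -0.25, edgeR adjusted p = 0.015). The inhibitor left a log2 fold change of 0.14 against HFD (interval -0.12 to 0.41, adjusted p = 0.48), and Mttp was 1.59-fold higher in HFD + Inhib than in HFD + siRNA (adjusted p = 0.00088). It was also 1.36-fold higher in HFD + Inhib than in LFD (adjusted p = 0.012). These 3 calls were kept in all 17 alternative fits.

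Each of the regulators of lipoprotein lipase differed between the treatments. Apoc2, the cofactor of the enzyme, stood at 108, 86.0, 102 and 89.4 CPM in LFD, 186, 152, 192 and 168 in HFD, 322, 208, 288 and 261 in HFD + siRNA, and 109, 109.5, 90.4 and 93.4 in HFD + Inhib. LFD and HFD + Inhib overlapped, HFD lay above both, and HFD + siRNA lay above HFD. Apoc2 rose 1.81-fold with HFD (log2 fold change 0.86, interval 0.59 to 1.13, edgeR adjusted p = 0.00047), rose a further 1.55-fold with siRNA (adjusted p = 0.0052) and fell 1.73-fold with the inhibitor (log2 fold change -0.79, interval -1.06 to -0.53, adjusted p = 0.00035). The treatments differed 2.68-fold (adjusted p = 9.3e-07). The rise with siRNA did not pass with the GC and length correction (log2 fold change 0.27, adjusted p = 0.19), while the other 2 changes and the difference between treatments were kept in all 17 alternative fits. Against LFD, the inhibitor group's Apoc2 differed by a log2 fold change of 0.06 (interval -0.20 to 0.33, adjusted p = 0.72), which became 0.36 and passed with that correction (adjusted p = 0.038). Of the 50-base words in Apoc2 transcripts, 78.3% also occur in Gm44805, a same-strand transcript over the same locus, so reads could be split between them.

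Apoc3, the inhibitor of the lipase, stood at 799, 665, 1056 and 830.1 CPM in LFD, 894, 796, 775 and 831 in HFD, 860.2, 828, 834 and 811 in HFD + siRNA, and 522, 729, 325 and 430.5 in HFD + Inhib. Only HFD + Inhib stood apart, with all its libraries below those of HFD and of HFD + siRNA and 1 of them inside the LFD range. Apoc3 fell 1.64-fold with the inhibitor against HFD (log2 fold change -0.72, interval -1.11 to -0.32, edgeR adjusted p = 0.013), and the log2 fold change with siRNA was 0.02 (interval -0.37 to 0.41, adjusted p = 0.97). The inhibitor group was 1.66-fold below HFD + siRNA (adjusted p = 0.0064) and 1.67-fold below LFD (adjusted p = 0.0054), and its 3 calls were kept in all 17 alternative fits.

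Apoa5, which favours the lipase, stood at 786, 562, 789 and 702 CPM in LFD, 711, 509.6, 583 and 677 in HFD, 729, 766, 808 and 736 in HFD + siRNA, and 477, 522, 398 and 431 in HFD + Inhib. HFD + siRNA lay above HFD in every library, and HFD + Inhib overlapped HFD in 1. Apoa5 fell 1.36-fold with the inhibitor (log2 fold change -0.44, edgeR adjusted p = 0.023), and differed by 0.29 on the log2 scale with siRNA (interval 0.02 to 0.56, adjusted p = 0.15). It was 1.66-fold lower in HFD + Inhib than in HFD + siRNA (adjusted p = 0.00043) and 1.55-fold lower than in LFD (adjusted p = 0.0011). The call against HFD was lost on leaving out HFD replicate 1 or 4 or HFD + Inhib replicate 3 or 4 (adjusted p from 0.066 to 0.084). Over the 16 libraries, Apoa5 and Apoc3 had a Pearson r of 0.86 on the log2 CPM scale, and 0.71 once the group means were taken out, as a description of libraries that share groups.

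The remaining members act in clearance. Apoe, the ligand of remnant receptors, stood at 12999, 9068, 13508 and 9531 CPM in LFD, 11164, 9684, 12295 and 10662 in HFD, 13919, 11953, 14029.6 and 13673 in HFD + siRNA, and 11459, 13794, 12331 and 10963 in HFD + Inhib. The groups overlapped in each pair, and the LFD libraries again fell into a high and a low pair, the same libraries as for Apoa1. Its log2 fold change against HFD was 0.29 with siRNA (interval -0.01 to 0.60, edgeR adjusted p = 0.21) and 0.15 with the inhibitor (interval -0.16 to 0.45, adjusted p = 0.53). With the GC and length correction Apoe came out higher in HFD + Inhib than in LFD (log2 fold change 0.44, adjusted p = 0.006, against 0.11 and 0.59 without it).

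Apoc1, a small apolipoprotein that slows remnant uptake, stood at 2443, 2169.6, 2522 and 1959.5 CPM in LFD, 2037, 1374, 2229 and 2089 in HFD, 2989.8, 2948, 2558 and 2556 in HFD + siRNA, and 2495, 2334, 2108 and 2097 in HFD + Inhib. All HFD + siRNA libraries were above every other library, and the second HFD library, which stood apart in its markers, was the lowest of all. Apoc1 rose 1.43-fold with siRNA against HFD (log2 fold change 0.52, interval 0.22 to 0.81, edgeR adjusted p = 0.025) and passed in no other comparison. Without the second HFD library the log2 fold change was 0.38 (adjusted p = 0.048). The call was lost on leaving out HFD + siRNA replicate 1, 2 or 4 (adjusted p from 0.05 to 0.074, the lowest of them above the threshold before rounding), and with the GC and length correction the log2 fold change was 0.04 (adjusted p = 0.91).

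Ratios between members in the same library do not depend on the scaling of libraries. The ratio of Apoa4 to Apoa1 was 0.0163 ± 0.0035 in LFD, 0.173 ± 0.090 in HFD, 0.0424 ± 0.0058 with siRNA and 0.0162 ± 0.0019 with the inhibitor, so LFD and HFD + Inhib overlapped, while HFD + siRNA lay above both and HFD above all other groups. The ratio of Apoc2 to Apoc3, cofactor to inhibitor of the lipase, was 0.117 ± 0.018 in LFD, 0.212 ± 0.025 in HFD, 0.323 ± 0.053 with siRNA and 0.214 ± 0.052 with the inhibitor. HFD and HFD + Inhib overlapped in this ratio although both genes were lower with the inhibitor. The ratio of Apoa2 to Apoa1 was 0.591 ± 0.204 in LFD, 0.805 ± 0.107 in HFD, 0.830 ± 0.066 with siRNA and 1.39 ± 0.37 with the inhibitor, where the lowest library, 1.02, was above the highest HFD library, 0.937. These ratios were chosen after the values were seen and were not tested.

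**Figure D3:**
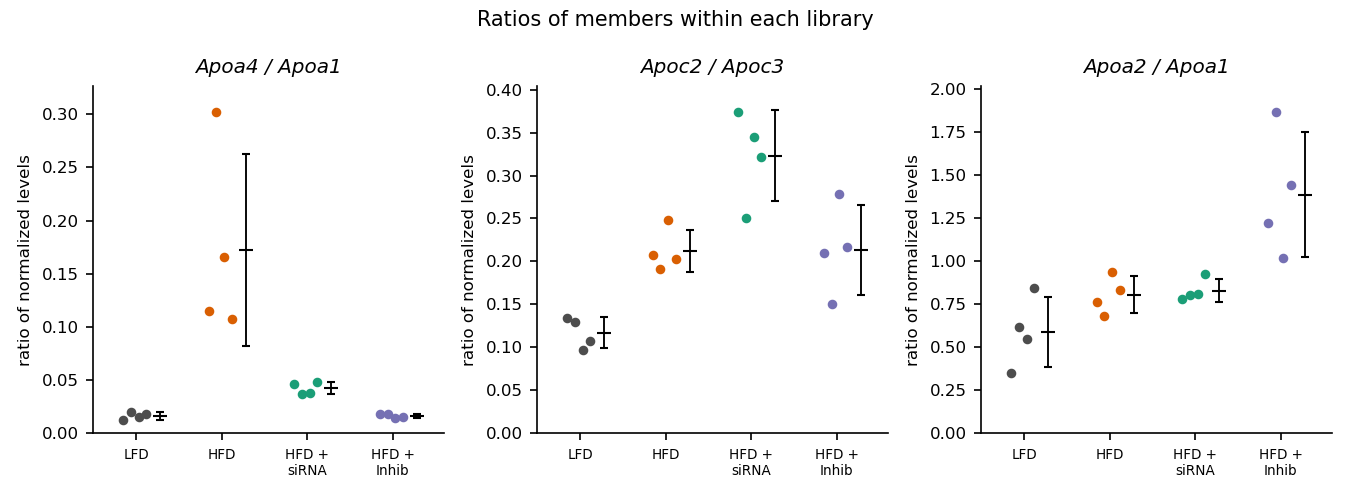
Ratios of normalized levels within each library (vertical axes, from 0) for Apoa4 to Apoa1, Apoc2 to Apoc3 and Apoa2 to Apoa1, with points for the 4 libraries of each group and the mean and SD beside them. Apoa4 to Apoa1 reached from 0.107 to 0.302 in HFD and at most 0.0485 in the other groups.

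Levels of different genes were compared per kilobase of transcript. In LFD, Apoe came first at 8009 ± 1634 CPM per kb, followed by Apoa2, Apoa1 and Apoc1 at 6145 ± 1235, 5493 ± 1282 and 4273 ± 485, and neighbours in this order overlapped within 1 SD. Apoc3 and Apob came next at 1181 ± 229 and 948 ± 120 CPM per kb and also overlapped, and below them Apoa5, Apoc2, Mttp and Apoa4 stood apart from each other at 282 ± 42.3, 132 ± 14.1, 86.8 ± 12.7 and 49.4 ± 4.75. Apoa4 was thus the lowest of the 10 in LFD. In HFD it reached 376 ± 178 CPM per kb and seventh rank, within 1 SD of Apoa5 and Apoc2, and in HFD + Inhib it was again the lowest at 29.5 ± 3.57. Apoa2 held the first rank in HFD + Inhib, at 8675 ± 1154 CPM per kb beside 8620 ± 882 for Apoe, a difference within their SD.

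Of the 10 members, 7 lie in gene clusters: Apoa1, Apoc3, Apoa4 and Apoa5 follow each other on chromosome 9, and Apoc2, Apoc1 and Apoe lie with Apoc4 and Gm44805 on chromosome 7. The chromosome 9 genes all passed in one direction in a single comparison, HFD + Inhib against LFD, where all 4 were lower, with log2 fold changes of -0.77 for Apoa1, -0.74 for Apoc3, -0.74 for Apoa4 and -0.63 for Apoa5 (edgeR adjusted p = 0.0011, 0.0054, 0.014 and 0.0011, with Apoa4 not passing with the GC and length correction). Of the flanking genes in that comparison, Zpr1 was lower by a like amount (-0.65, adjusted p = 0.0038) and Pafah1b2 was higher (0.22, adjusted p = 0.045). In the other comparisons the calls were mixed. Apoa4 rose with HFD, while Apoa1 fell and Apoc3 and Apoa5 gave log2 fold changes of -0.02 and -0.19 (edgeR adjusted p = 0.95 and 0.31). With siRNA only Apoa4 of these 4 passed, and with the inhibitor Apoa4, Apoc3 and Apoa5 fell while Apoa1 was at -0.27 (adjusted p = 0.25). Of the 4 flanking genes, Zpr1 fell with HFD (log2 fold change -0.84, adjusted p = 0.0022), and none passed with either treatment against HFD. On chromosome 7, Apoc2 was the cluster's sole gene to pass with HFD or with the inhibitor, and Apoc2 and Apoc1 passed with siRNA. Apoc4 passed in the comparison of the treatments, at -0.37 in HFD + Inhib against HFD + siRNA (adjusted p = 0.026). Among its flanks, Clptm1 fell with HFD (-0.32, adjusted p = 0.022), and with the inhibitor Relb fell (-0.63, adjusted p = 0.039) and Nectin2 rose (0.77, adjusted p = 0.013). The flanking genes were chosen by position alone, after the members' values were known.

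**Figure D4:**
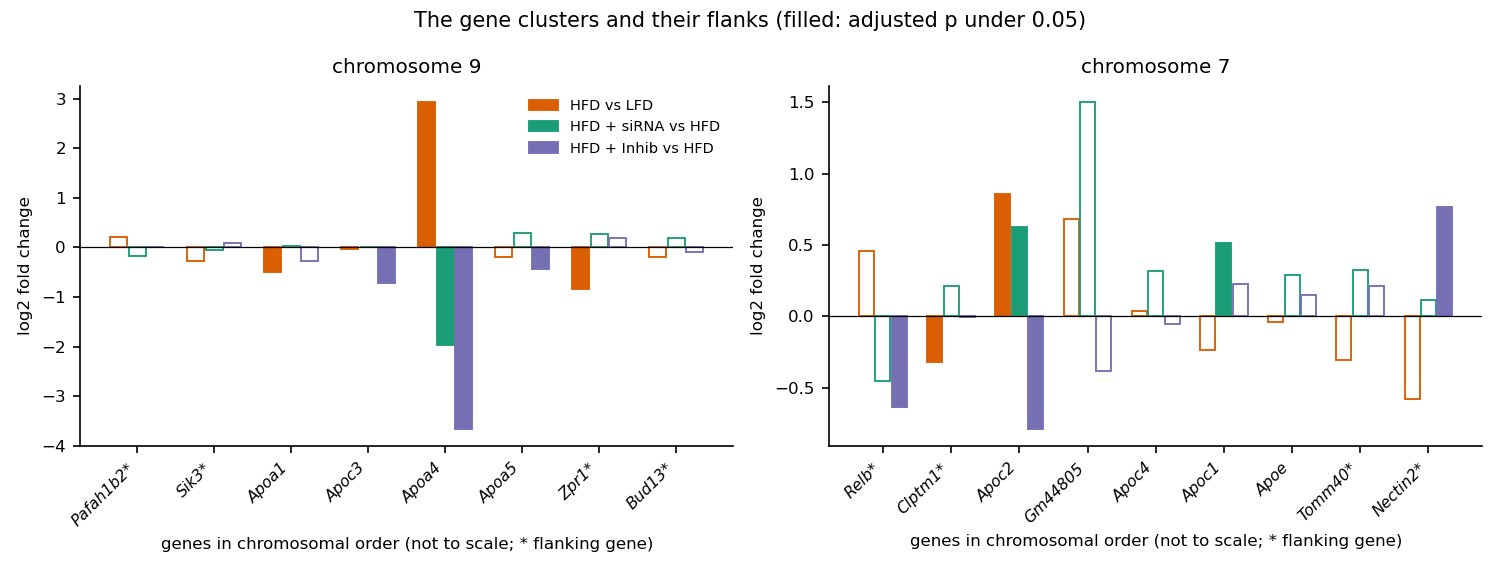
Log2 fold change (vertical axes) of the genes of both clusters and their flanking genes in chromosomal order, for 3 comparisons, filled where the edgeR adjusted p was under 0.05. On chromosome 9 the bars of Apoa4 reach 2.93, -1.97 and -3.67, and the flanking gene with a filled bar is Zpr1 at -0.84.

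The promoters of Apoa4 and Apoc2, which carried the widest differences, and of Mttp, which fell with siRNA, are shown so that the letters can be read beside these values. RefSeq (GRCm38.p6) gave a promoter of 250 bases before to 50 after the start for 8 of the 10 members, 12 promoters in all, and Apoc1 and Apoc3 were not matched. Each was searched on both strands for the nuclear receptor half-site AGGTCA, its direct repeat with 1 base between (which contains the half-site), the E-box CACGTG, the cyclic AMP response element core TGACGT, and TATAAA. Matches are in capitals, the rest in lower case, and positions count from the start. The Apoa4 promoter, chr9:46240594-46240893 on the plus strand, held none of them. The Apoc2 promoter, chr7:19677892-19678191 on the minus strand, held AGGTCA at -115 and at 43. The Mttp promoter, chr3:138143369-138143668 on the minus strand, held TGACGT on the opposite strand at -29.
Apoa4: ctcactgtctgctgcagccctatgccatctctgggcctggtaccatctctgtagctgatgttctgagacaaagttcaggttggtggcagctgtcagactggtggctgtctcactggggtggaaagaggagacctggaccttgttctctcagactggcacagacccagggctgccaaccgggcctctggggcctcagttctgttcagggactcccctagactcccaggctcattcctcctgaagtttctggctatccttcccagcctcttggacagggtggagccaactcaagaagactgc
Apoc2: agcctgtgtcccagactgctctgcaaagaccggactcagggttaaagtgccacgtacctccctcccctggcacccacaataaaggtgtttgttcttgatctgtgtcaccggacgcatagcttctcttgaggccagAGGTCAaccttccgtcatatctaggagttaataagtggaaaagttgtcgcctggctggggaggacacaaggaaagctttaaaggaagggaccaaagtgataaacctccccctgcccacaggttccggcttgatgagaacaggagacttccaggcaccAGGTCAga
Mttp: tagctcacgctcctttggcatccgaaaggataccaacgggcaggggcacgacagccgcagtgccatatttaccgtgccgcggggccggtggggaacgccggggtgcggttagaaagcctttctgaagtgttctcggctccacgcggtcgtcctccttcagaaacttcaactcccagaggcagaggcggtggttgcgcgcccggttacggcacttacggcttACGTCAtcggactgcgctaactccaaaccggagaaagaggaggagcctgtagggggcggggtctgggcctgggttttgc
Of 32851 mouse promoters of the same length, 16.3% held AGGTCA, 0.0396% the direct repeat, 7.15% CACGTG, 7.51% TGACGT and 13.6% TATAAA. Of the 12 member promoters, 2 held AGGTCA (Apoc2 and 1 of Apoa2), 2 CACGTG (both of Apoa5, which overlap), 1 TGACGT (Mttp), and 5 TATAAA (both of Apoa5, and 1 each of Apoa2, Apob and Apoe), and none held the direct repeat. A match is a description of the letters and no match says only that these letters are not in the window.

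The other genes of lipoprotein metabolism were read from 6 lists, whose counts stand beside 18.4% of all tested genes called with HFD, 11.7% with siRNA and 18.2% with the inhibitor. Of 15 other apolipoproteins, 13 were tested. With HFD, 3 rose and 2 fell, led by Apom, an HDL apolipoprotein (log2 fold change -1.06, edgeR adjusted p = 0.00025). With siRNA, Clu rose (0.48, adjusted p = 0.0086) and the other 12 did not pass. With the inhibitor, 9 fell, beside 8.42% of all tested genes, and none rose, with a median of -0.59 over the 13 beside -0.0044 over all tested genes. In the same libraries the summed level of 9 hepatocyte markers was 48290 ± 1701 CPM, against 78049 ± 6358 in HFD, and its part in these falls was not tested. The falls included Apol9a (-1.93, adjusted p = 9.5e-05) and Apol9b (-1.36, adjusted p = 0.00025), near-identical genes whose reads may be split, and the acute-phase apolipoproteins Saa1 (-1.75, adjusted p = 0.02) and Saa2 (-1.86, adjusted p = 0.021), which are also similar to each other. Between the treatments, 12 of the 13 passed as lower in HFD + Inhib, beside 16.6% of all tested genes. The member fold changes with the inhibitor, by contrast, went both ways, with Apoa2 rising and Apoa4, Apoc2, Apoc3 and Apoa5 falling.

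VLDL assembly and secretion was covered by 20 genes beside Mttp and Apob, all tested. With HFD, 1 rose and 2 fell, and with siRNA 1 rose and 2 fell, shares of the list near those of all tested genes (18.4% and 11.7%). Sar1b, a GTPase of the vesicles that leave the endoplasmic reticulum, rose with HFD (0.37, edgeR adjusted p = 0.031), fell with siRNA (-0.43, adjusted p = 0.021) and was higher in HFD + Inhib than in HFD + siRNA (0.85, adjusted p = 3.9e-05). With siRNA, P4hb, the partner subunit of MTTP, rose (0.45, adjusted p = 0.021) while Mttp fell, and A1cf, a cofactor of Apob mRNA editing, fell (-0.39, adjusted p = 0.039). With the inhibitor, beside 18.2% of all tested genes, 4 rose and 2 fell, including Lpcat3, a phospholipid-remodelling enzyme (0.99, adjusted p = 8.1e-06), and Ces1d, a hydrolase (0.71, adjusted p = 0.02), among those that rose, and Tm6sf2 (-0.76, adjusted p = 0.01) and Dgat2, a triglyceride synthase (-0.69, adjusted p = 0.0025), as those that fell. The median was 0.0079.

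Plasma remodelling and HDL formation was covered by 12 tested genes. With HFD, Lipg, endothelial lipase, rose (1.53, edgeR adjusted p = 0.0019) and no other passed. With siRNA, Lmf1, which matures lipases, and Lcat, which esterifies cholesterol on HDL, rose (0.64 and 0.44, adjusted p = 0.0047 and 0.029). With the inhibitor 4 rose and none fell. Lpl, the lipase whose cofactor and inhibitor both fell, went from 20.9 ± 1.03 CPM in HFD to 189 ± 53.5 in HFD + Inhib (log2 fold change 3.17, adjusted p = 3.4e-06). Pltp, which transfers phospholipid to HDL, went from 45.8 ± 6.12 to 177 ± 26.7 CPM (1.95, adjusted p = 2.7e-06), and Angptl4, another brake on the lipase, rose 1.51 on the log2 scale (adjusted p = 0.018). In HFD + siRNA, Lpl stood at 17.0 ± 3.21 CPM.

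Lipoprotein uptake was covered by 12 tested genes. HFD lowered 3, among them Lrp1, a remnant receptor for Apoe (-0.38, edgeR adjusted p = 0.032), which rose with siRNA (0.39, adjusted p = 0.037). The inhibitor raised Vldlr, another receptor for Apoe (2.37, adjusted p = 0.00021), and lowered Scarb1, the HDL receptor (-0.59, adjusted p = 0.017, with overlapping groups). Of 22 transcription factors known to act on apolipoprotein genes, 2 rose and 2 fell with HFD, about the share of all tested genes (18.4%), including Ppara (0.81, adjusted p = 0.00076) and Mlxipl (-0.62, adjusted p = 0.0032). None of the 22 passed with siRNA by edgeR, although 6 had an unadjusted p under 0.05 and DESeq2 called 2, and with the inhibitor Nr0b2, a corepressor, fell (-0.79, adjusted p = 0.023) and Creb3l3 was at 0.36 with overlapping groups, just inside the threshold at an adjusted p of 0.05 once rounded.

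CREB3L3 is a hepatic factor known to drive Apoa4, Apoc2 and Apoa5, and 7 other genes known to respond to it were read beside them. With HFD 4 rose, namely Cidec, Cidea, Fgf21 and Fabp2, beside 9.58% of all tested genes, and none fell. The other 3 did not pass, and 2 of the 7 lay below 0. Creb3l3 itself stood at 200 ± 27.2 CPM in LFD and 193 ± 15.4 in HFD, and did not pass. Cidec, a lipid droplet protein, went from 0.952 ± 0.380 CPM in LFD to 7.70 ± 5.12 in HFD, with 3.58 ± 0.499 under siRNA and 45.6 ± 13.8 under the inhibitor. With siRNA Cidec fell (log2 fold change -1.12, groups overlapping, edgeR adjusted p = 0.05 once rounded). That call was lost in 6 of the 8 fits that left out 1 library, and without HFD replicate 2 the log2 fold change was -0.54 (adjusted p = 0.22). With the inhibitor Cidea (5.03, adjusted p = 1.7e-05), Cidec (2.55, adjusted p = 7.9e-05) and Fabp2 (0.46, adjusted p = 0.018) rose, whereas Crp, an acute-phase protein, fell (-0.46, adjusted p = 0.0026), as did Apoa4, Apoc2 and Apoa5. Cidea was at 0.152 to 1.23 CPM in the HFD libraries, and without HFD replicate 2 its log2 fold change with the inhibitor was 6.30. Cidea had between 0 and 2 counts per LFD library, so its fitted fold change against LFD depends on the prior count and is not given.

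Several of these list calls lay near the threshold. With the GC and length correction, A1cf, P4hb, Lcat and Lrp1 no longer passed with siRNA, Sar1b and Lrp1 with HFD, or Fabp2 with the inhibitor. Among the other list genes named, Sar1b and Cidec with siRNA, Cidea with HFD, and Ces1d, Saa1, Saa2, Angptl4, Nr0b2, Scarb1 and Creb3l3 with the inhibitor were lost in at least 1 fit that left out a library. Cidec with siRNA and Creb3l3 with the inhibitor were lost also when just the compared groups were fitted (adjusted p = 0.068 and 0.087).

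**Figure D5:**
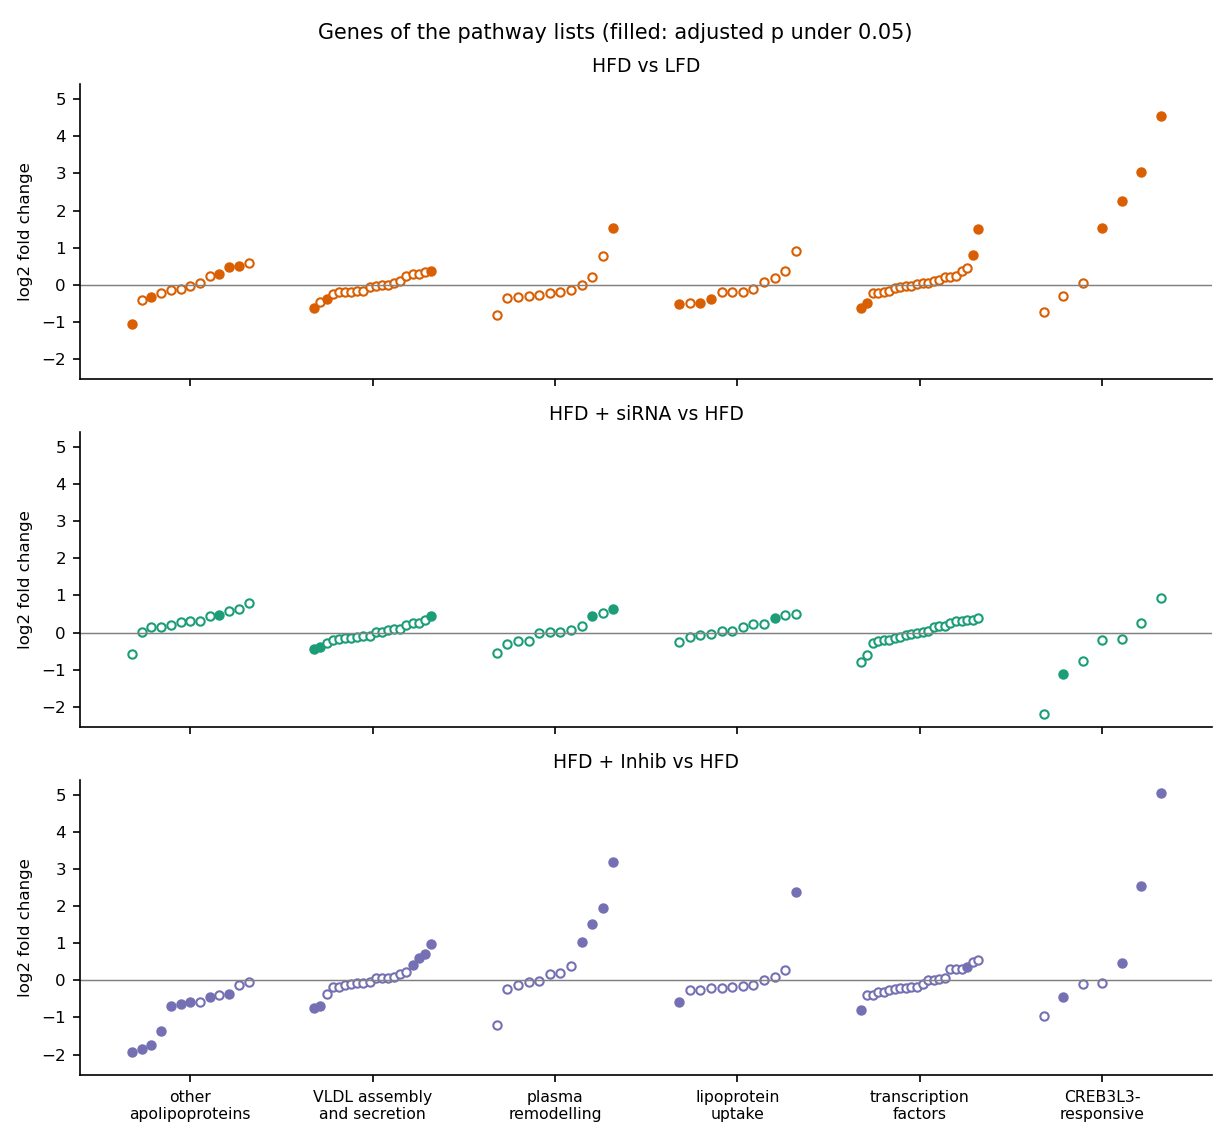
Log2 fold change (vertical axes, the same scale in each panel) of the tested genes of the 6 lists, each point a gene in order of its value, for HFD against LFD (top), HFD + siRNA against HFD (middle) and HFD + Inhib against HFD (bottom), filled where the edgeR adjusted p was under 0.05. With the inhibitor all 13 other apolipoproteins lie below 0 and 9 are filled, while the filled genes of plasma remodelling all lie above 0.

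By the rule of highest Pearson correlation on log2 CPM over the 16 libraries, among 12600 genes, the genes most like Apoa4 were Ntrk2 (r = 0.90), Haus8 (0.89) and Acot11 (0.89). For Apoc2 they included Gpc1 (0.93) and Clic5 (0.92). Gpc1, a heparan sulfate proteoglycan, had 5.86 ± 2.58 CPM in LFD, 33.7 ± 5.70 in HFD, 48.5 ± 11.1 with siRNA and 6.62 ± 1.195 with the inhibitor. These values describe libraries that share 4 groups.

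The liver label was checked against hepatocyte markers. The 9 markers summed to between 83375 and 106995 CPM in LFD, 68714 and 82665 in HFD, 76705 and 91945 in HFD + siRNA, and 46289.6 and 50128 in HFD + Inhib. Alb, their most abundant gene, stood at 50979.8 ± 5513 CPM in HFD and 29925 ± 1759 in HFD + Inhib, and 4 of the 9 markers fell with the inhibitor against HFD, beside 8.42% of all tested genes, while none rose. Their part in the lower Apoc2, Apoc3, Apoa5 and Apoa4 levels of HFD + Inhib was not tested, and Apoa2 rose, and Apob and Apoe did not pass, in the same libraries. In bulk liver, fewer cells of a type and less RNA per cell cannot be told apart. Of the adipocyte markers, Cfd made up nearly the whole sum, which was 2.87 ± 3.32 CPM in HFD and 34.6 ± 16.2 in HFD + Inhib. The other 4 had too few counts to be tested. In HFD, Adipoq, Plin1 and Lep were above 0 in the second library alone, at 0.257, 0.231 and 0.539 CPM, and in HFD + Inhib they averaged 0.039, 0.0088 and 0 CPM, so no direction can be read for them. The 12 macrophage and Kupffer cell markers, of interest because macrophages also make Apoe, summed to 231 ± 22.9 CPM in HFD, 269 ± 32.1 with siRNA and 182 ± 30.5 with the inhibitor, and 3 of them fell with the inhibitor, beside the same 8.42%.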

How the data were processed

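RNA-Seq had given 16 liver libraries. The authors deposited one table of expected counts per gene symbol from RSEM after STAR alignment to mm39 per the labels, with no versions given. In these expected counts, 15.1% of values were not whole. The study's methods name HTG EdgeSeq, which does not produce RSEM values, and strandedness is not given in the sources used here. For this re-analysis, the deposited expected counts were rounded and fitted with edgeR 4.0.16 (R 4.3.3, TMM, filterByExpr with a minimum count of 10, quasi-likelihood test, Benjamini-Hochberg adjustment, threshold 0.05) in one fit of 16 libraries without covariates. The 95% intervals are the log2 fold change plus and minus its standard error, derived from the F statistic, times the t quantile at edgeR's total degrees of freedom. No p-value measures more than the spread between these libraries, since the labels do not say that each came from a separate mouse. Alternatives were DESeq2 1.42.0, RLE factors, other filters, the compared groups alone, totals without the members, a replicate block, offsets for GC content and length (86.5% of tested genes matched GENCODE M21), and leaving out each library. No 2 libraries of a group agreed within sampling noise (chi-square per gene of at least 20.6 over 24 pairs). The test was checked on simulated counts for HFD + Inhib against HFD over 18041 genes, where it recovered 7 of 50 genes changed by 0.5 on the log2 scale and 40 of 50 changed by 1. The simulation changed 50 genes at each size and gave all genes one dispersion, while 3339 genes passed in the data. The recovered shares therefore need not hold in the data. With a simulated GC trend over 15635 genes, the corrected fit recovered 129 of 179 changed genes with 4 false calls, against 134 with 114 false calls uncorrected.

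The members and lists were chosen with earlier results of these data known. Text names each member, Khk, and up to 4 genes per list and comparison with the largest change among those past the threshold and averaging at least 1 in log2 CPM, as well as the 3 genes most like each member that changed by at least 1, of which one is not reported here. The reference genome given was GRCm38, another build than the files use, so no gene coordinates are printed beyond the RefSeq promoters, and 48908 of 50559 symbols matched the RefSeq table.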

Additional observations from a re-analysis of the deposited data

How the results depend on the processing

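Each of the 60 member results was refitted 17 times. Of the 1020 values, 921 kept their direction and side of the threshold, 38 were weaker, 12 newly passed and 49 changed sign, none of them among the 26 calls. For the list genes named by rule, 1598 of 1797 values stayed the same and 199 were weaker. In HFD + siRNA against HFD the GC content and length correction left 1403 genes and 2 members called (2 members also with the replicate block added), and using the compared groups alone left 808 genes in HFD + siRNA against LFD. The cause of these changes was not tested. Values below are log2 fold changes of results that were not called. With the correction, and then with the block added, Apoa1 in HFD + siRNA against HFD was -0.21 and -0.20, Apoa2 -0.38 and -0.36, and Apoc3 -0.34 and -0.34. In HFD against LFD, Apoc1 was 0.28 and 0.25, Apoc3 0.35 and 0.35, Apoe 0.20 and 0.20, and Khk 0.20 and 0.22. Apoc1 in HFD + Inhib against LFD was 0.29 and 0.29, Apoc3 in HFD + siRNA against LFD 0.016 and 0.016, and Apoe in HFD + Inhib against HFD + siRNA 0.15 and 0.14. With at least 10 counts in every library, Apoc1 in HFD + Inhib against LFD was 0.0073 and Khk in HFD against LFD 0.0053. With no filter that Apoc1 value was 0.0068, and with totals without the members Apoc3 in HFD + siRNA against HFD was -0.0010.

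Leaving out each library in turn gave 2001 to 3691 genes in HFD against LFD, 1100 to 1981 in HFD + siRNA against HFD, 965 to 1456 in HFD + siRNA against LFD, and 3 to 5 members in HFD + Inhib against HFD. Counts fell by over 1.5 times without LFD replicate 1 or 3 or HFD replicate 3 or 4 in HFD against LFD (2147, 2001, 2013 and 2183), without HFD replicate 3 or 4 or HFD + siRNA replicate 1, 3 or 4 in HFD + siRNA against HFD (1100, 1328, 1423, 1391 and 1162), and without HFD + siRNA replicate 1, 3 or 4 in HFD + siRNA against LFD (1052, 965 and 992). The 3 members were left without HFD replicate 1 or 4 or HFD + Inhib replicate 4. Ranges that crossed 0 in HFD against LFD were -0.077 to 0.12 for Apoa2, -0.10 to 0.024 for Apob, -0.12 to 0.11 for Apoc3, -0.13 to 0.061 for Apoe and -0.12 to 0.15 for Khk. In HFD + siRNA against HFD they were -0.0066 to 0.063 for Apoa1, -0.017 to 0.14 for Apoa2 and -0.014 to 0.057 for Apoc3. In HFD + siRNA against LFD they were -0.019 to 0.17 for Apoa2, -0.015 to 0.14 for Apoa5, -0.025 to 0.13 for Apob and -0.12 to 0.11 for Apoc3. For Apob they were -0.045 to 0.016 in HFD + Inhib against HFD and -0.12 to 0.0087 against LFD, and for Apoc1 -0.073 to 0.045 in HFD + Inhib against LFD.

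Libraries with the same replicate number showed a weak likeness, which does not settle whether they were paired. Over 24 same-number pairs the correlation of deviations ran from -0.132 to 0.336, with 6 over 0.1. Its mean was 0.041, against -0.0137 for pairs with different numbers, and 9 of 16 libraries were nearest to their own number. With the replicate block, 3299, 2080, 3341, 6197, 1469 and 6683 genes passed in the 6 comparisons (HFD against LFD, HFD + siRNA and HFD + Inhib against HFD, HFD + Inhib against HFD + siRNA, HFD + siRNA and HFD + Inhib against LFD), Khk in HFD against LFD was 0.0038, and Mttp passed in HFD against LFD (0.31, adjusted p = 0.049). The block ended the calls of A1cf and Cidec in HFD + siRNA against HFD (adjusted p = 0.051 and 0.087), Creb3l3 in HFD + Inhib against HFD (0.068), Clu in HFD against LFD (0.057) and Fgf21 in HFD + Inhib against LFD (0.06). With the GC content and length correction and the block together, Apoa2 passed in HFD against LFD (0.48, adjusted p = 0.031). Few changes of 0.5 on the log2 scale were recovered in the simulated data. Far fewer genes changed there than passed in the data, so that share does not carry over to the members. For a member that did not pass, the interval of its difference, and not the missed threshold, bounds the change.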
